A study of Mus musculus with 31 samples.

Results

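The WT mice of the transgenic line labelled 3 were compared by the prefix of their names. The X424 mice were the 3 WT mice whose names begin with X424.C, and the other 5 were named SMC12.C, X605A.A or X605B.A. These 8 were all the WT mice of line 3 among 31 mice in all. The comparison asks which transcripts differ among control animals that carry no transgene but come from different name groups. All were on a C57BL/6N background, and their CYFIP1 OE littermates carry a human CYFIP1 BAC. The X424 mice were 2 males (X424.C1 and X424.C3) and 1 female (X424.C2), each 60 days old. The others were 2 males aged 59 days (SMC12.C3 and SMC12.C4), 2 females aged 59 days (X605B.A3 and X605B.A7) and 1 female aged 58 days (X605A.A4). Age and name group cannot be told apart, since each X424 mouse was older than each other mouse. Among the other 5, SMC12 held males alone and X605 held females alone. A shared prefix is all that ties the mice of a name group, because the labels give no litter, cage or dissection day.

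The basolateral amygdala (BLA) is a group of nuclei deep in the temporal lobe, built mainly of glutamatergic principal neurons with a minority of GABAergic interneurons, and it is needed for learned fear. It lies between the cortex and claustrum on its outer side, the striatum and central amygdala on its inner and upper side, and the lateral ventricle and ventral hippocampus behind it. A tissue punch of the BLA can therefore take up RNA of these neighbours. Their marker genes are well known: Drd1 and Pde10a for striatal projection neurons, Ttr for the choroid plexus of the ventricle, Prox1 for dentate granule cells, Spink8 for hippocampal pyramidal cells, and Gnb4 and Nr4a2 for the claustrum and deep cortex.

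Sequencing was by QuantSeq, which reads the 3′ end of each polyadenylated transcript. The total counts of the 8 mice ran from 6422037 to 8685308. The mean was 8180913 in the X424 mice and 7427177 in the others, and the difference of 753736 gave p = 0.25 in a two-sided exact permutation test over 56 splits. Values below are CPM, read counts scaled to a common library size by TMM normalization. Endogenous Cyfip1 did not separate the groups, with 36.0, 34.5 and 36.3 CPM in X424.C1, X424.C2 and X424.C3 and 27.7 to 39.0 CPM in the others, a log2 difference of 0.00 ± 0.17 (SE). Its direction was downward in males (-0.05) and upward in females (0.10), a contrast that was not tested. Xist and Ddx3y, transcripts of the inactive X and of the Y chromosome, fitted the sex label of all 8 mice. The 8 genes listed for BLA principal neurons, among them Neurod2, Neurod6 and Etv1, each had 10 reads or more in all 8 mice. Their detection alone does not show how much of a punch was BLA.

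One further X424 mouse, the male X424.C4, was CYFIP1 OE and entered no fit of the WT mice. Its library stood apart from the other 30. Its standardized connectivity, a Z-score of how well a profile correlates with all others, was -4.57, against -1.42, -0.73 and 0.21 in X424.C1, X424.C2 and X424.C3. One transcript, Akap5, took 19.13% of its counts. Its values are therefore given as those of 1 mouse, beside the 7 other line 3 OE mice, with no test. The 8 WT mice of the line labelled 1 are used to show on which side of the controls a group lay. X424.C4 was 60 days old. The 7 other line 3 OE mice were males and females aged 58 to 64 days, and X605B.A4, at 64 days, was older than X424.C4. The 8 line 1 WT mice were males and females aged 59 to 61 days. Line 1 OE mice, males and females aged 59 to 77 days, are given for a few values.

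No gene passed an adjusted p of 0.05 between X424 and the other WT mice. The edgeR quasi-likelihood test was run on 18246 genes with sex as a covariate, and 0.0% were called, with a smallest adjusted p of 0.123. At an unadjusted p under 0.05 there were 1442 genes (7.9%), against 912.3 expected if p-values were uniform, and DESeq2 called 49 genes at an adjusted p under 0.05. Of the 1442 genes, 706 were higher in the X424 mice (3.87% of all tested) and 736 were lower (4.03%). At an unadjusted p under 0.005 there were 173 genes (0.948%), against 91.2 expected, of which 97 were higher (0.532%) and 76 lower (0.417%). The median log2 fold change of all genes tested was -0.001. The value of the last gene inside the limit was 0.005 and that of the first outside was 0.00512. Genes below are called higher or lower on these unadjusted values, and none of them passed the adjusted test.

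**Figure D1:**
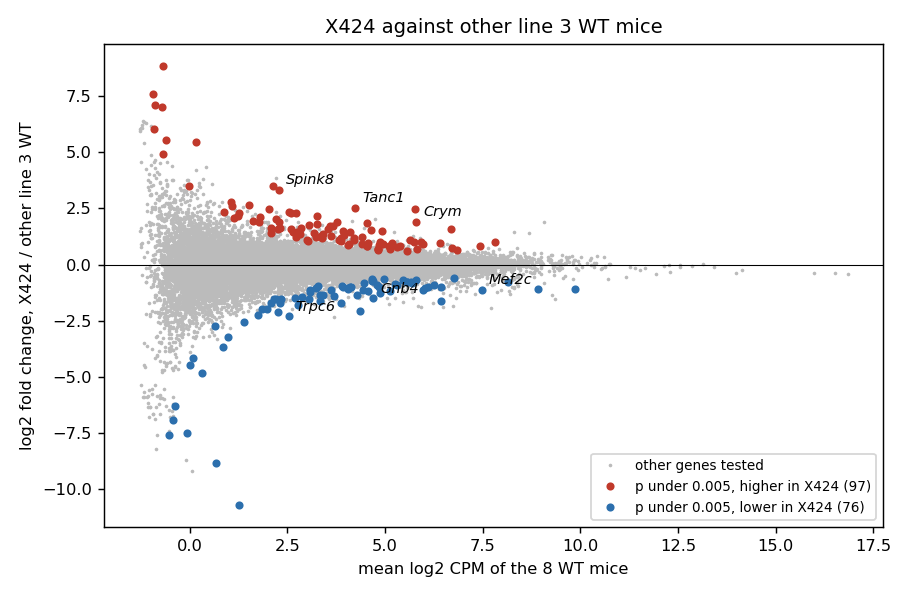
Log2 fold change between X424 and the other line 3 WT mice (vertical axis) against the mean log2 CPM of the 8 mice (horizontal axis), 1 point per gene tested. The 97 genes higher at p under 0.005 are red and the 76 lower ones blue, and the genes with the largest fold changes lie at the lowest expression.

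The genes with the smallest p were higher in X424 mice. Spink8, a Kazal-type protease inhibitor (chromosome 9, 109812280 to 109826633, + strand), was at 8.58, 38.6 and 16.9 CPM in X424.C1, X424.C2 and X424.C3. In SMC12.C3, SMC12.C4, X605B.A3, X605B.A7 and X605A.A4 it was at 1.3, 3.28, 1.19, 2.69 and 1.93 CPM. All 3 X424 mice were above all 5 others, a log2 difference of 3.34 ± 0.46 (SE, adjusted p = 0.123). Line 1 WT mice had 1.92 to 7.33 CPM, all below the lowest X424 mouse, and X424.C4 had 17.2 CPM against 0.896 to 9.32 in the other line 3 OE mice. Line 1 OE mice had 2.68 to 28.3 CPM, a range that held X424.C1 and X424.C3.

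Thsd4, a secreted protein with thrombospondin repeats (chromosome 9, 59966931 to 60522046, - strand), was at 17.1, 21.7 and 7.49 CPM in the X424 mice in the same order. It was at 2.21, 3.28, 4.46, 4.61 and 2.52 CPM in the other 5, and the groups did not overlap (log2 difference 2.31 ± 0.37, adjusted p = 0.198). X424.C4 was again high, at 23.8 CPM, where no other line 3 OE mouse exceeded 4.19 CPM. Golm1, a Golgi membrane protein, was at 13.4, 25.3 and 5.16 CPM in X424 and at 1.43, 1.92, 4.16, 5.63 and 6.83 CPM in the others, so that X424.C3 lay among them (log2 difference 2.34 ± 0.37). Tanc1, a scaffold protein of the postsynaptic density, was at 77.9, 87.9 and 13.6 CPM against 7.94, 10.5, 8.47, 10.9 and 18.5 CPM (log2 difference 2.54 ± 0.44). Here too X424.C3 lay within the range of the others, while X424.C1 and X424.C2 were far above it.

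Crym, the cytosolic thyroid hormone binding protein mu-crystallin (chromosome 7, 120186380 to 120202111, - strand), followed the same order of mice. It was at 106, 272 and 47.6 CPM in the X424 mice and at 29.3, 42.1, 26.9, 49.8 and 39.3 CPM in the others (log2 difference 1.92 ± 0.36). X424.C4 had 186 CPM, against 28.8 to 47.5 CPM in the other line 3 OE mice. Calb2, the calcium-binding protein calretinin of interneurons, was at 11.7, 37.5 and 7.88 CPM in X424 and at 2.08 to 5.31 CPM in the others (log2 difference 2.29 ± 0.43), with no overlap. Line 1 OE mice had 3.57 to 44.7 CPM, a range that held all 3 X424 mice. Calb2 was the 1 member of 12 interneuron genes with p under 0.05, beside 3.87% of all genes on the higher side. The median log2 fold change of that list was -0.06.

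The remaining coding genes with the smallest p on the higher side were of mixed function. Car4, a membrane-bound carbonic anhydrase, had 13.3 to 28.8 CPM in X424 and 5.08 to 9.47 CPM in the others. Nkd2, an antagonist of Wnt signalling, had 5.04 to 17.1 CPM against 1.04 to 3.2 CPM. Serpina3n, a serine protease inhibitor known from reactive astrocytes, had 1.81 to 10.1 CPM against 0.678 to 1.19 CPM, and it met the filter on low counts only through the X424 mice. Pcdh20, a protocadherin, had 13.6 to 56.9 CPM against 6.54 to 12 CPM. Kit, the receptor of stem cell factor, had 12.1 to 26.1 CPM against 5.86 to 8.96 CPM. In each of these 5 genes all 3 X424 mice were above all 5 others, and X424.C2 was highest and X424.C3 lowest of the 3. Cabp7, a calcium-binding protein, had 11.4 to 44.7 CPM against 3.39 to 10.5 CPM, with the same order. X424.C4 lay above the other line 3 OE mice for Nkd2, Serpina3n, Pcdh20, Cabp7 and Kit, at 16.2, 12, 32.9, 17.4 and 17.6 CPM, and for Car4 it lay within their range, at 12.2 CPM.

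Genes that do not code for protein were few on this side. F730043M19Rik, a long noncoding RNA from a bidirectional promoter (chromosome 12), had 10.8, 36.0 and 13.0 CPM in X424 and 3.39 to 11.9 CPM in the others (log2 difference 1.80 ± 0.25, adjusted p = 0.123). X424.C1 lay within the others, and the line 1 WT range of 9.33 to 16.3 CPM held X424.C1 and X424.C3. X424.C4 had 33.7 CPM, above the 8.44 to 19.8 CPM of the other line 3 OE mice. The pseudogene Gm10499 on chromosome 17 had 17.3 to 32.8 CPM against 8.2 to 11.6 CPM, but X424.C4 was below the other line 3 OE mice, at 2.78 CPM against 6.95 to 19.6 CPM. Gm37811 had no read in any of the other 5 mice and none in X424.C1, and it had 11.3 and 4.91 CPM in X424.C2 and X424.C3. Its X424 mean was at least 13.5-fold higher, counted against a floor of 3 reads per library. The gene met the filter on low counts only through the X424 mice. Mice outside X424 also reached these levels, with 0 to 11.8 CPM in line 1 WT mice and 0 to 14.2 CPM in the other line 3 OE mice. X424.C4 had 5.91 CPM.

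**Figure D2:**
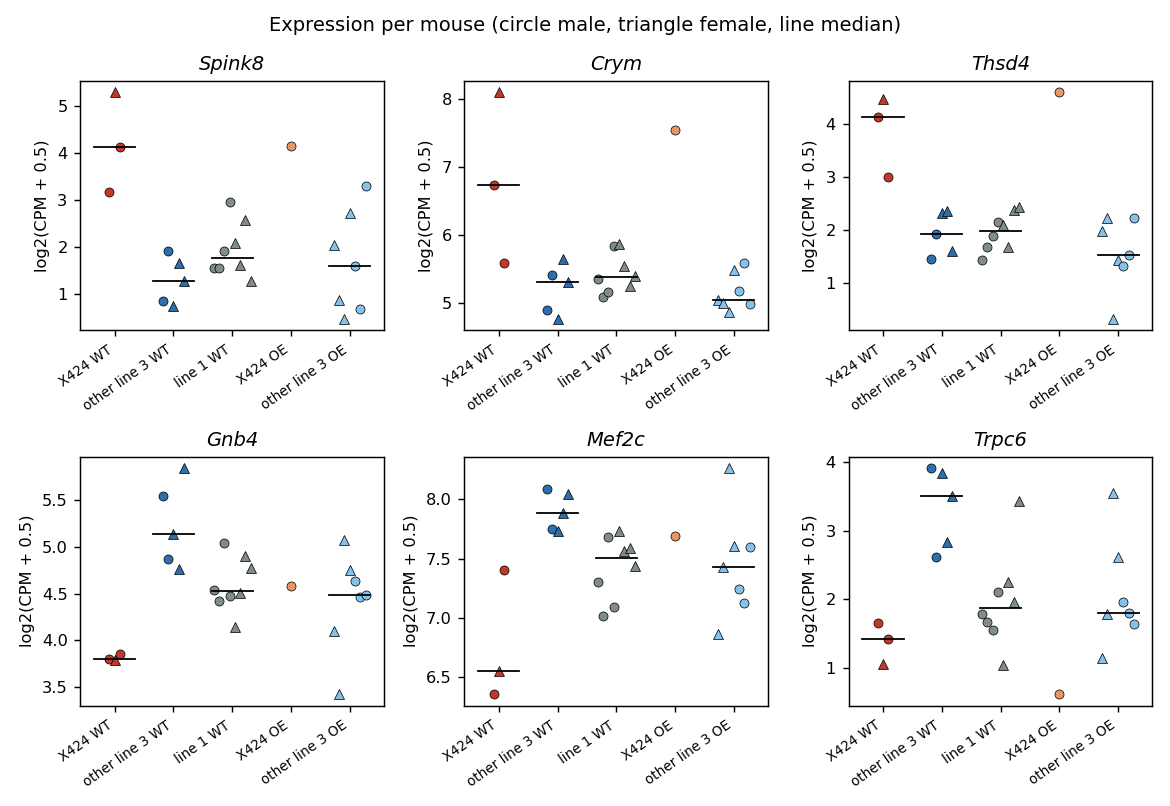
Expression of 6 genes as log2(CPM + 0.5) in each mouse, by group on the horizontal axis; circles are males, triangles females and lines group medians. For Spink8 and Thsd4 the 3 X424 WT mice lie above all 5 other line 3 WT mice, for Gnb4, Mef2c and Trpc6 below them, and for Crym X424.C3 (47.6 CPM) lies among them.

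The genes with the smallest p on the lower side include a claustrum marker, an activity-dependent transcription factor and several synaptic or channel genes. Gnb4, a G protein beta subunit (chromosome 3, 32580332 to 32616585, - strand), was at 13.4, 13.3 and 13.9 CPM in X424.C1, X424.C2 and X424.C3. It was at 46.2, 28.7, 34.8, 26.6 and 57.1 CPM in SMC12.C3, SMC12.C4, X605B.A3, X605B.A7 and X605A.A4. The X424 mice were close to each other and below every other mouse (log2 difference -1.50 ± 0.28, adjusted p = 0.319). Line 1 WT mice had 17.2 to 32.5 CPM and so lay between the groups, and X424.C4, at 23.5 CPM, was within the 10.2 to 33.3 CPM of the other line 3 OE mice.

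Mef2c, a transcription factor that controls synapse number in an activity-dependent way (chromosome 13, 83504034 to 83667080, + strand), was at 81.3, 93.1 and 169 CPM in the X424 mice. In the other mice it was at 271, 215, 212, 236 and 263 CPM, a log2 difference of -1.12 ± 0.24 with no overlap (adjusted p = 0.358). X424.C4, at 206 CPM, lay within the other line 3 OE mice at 116 to 307 CPM. Trpc6, a calcium-permeable cation channel, was at 2.66, 1.6 and 2.2 CPM in X424 and at 14.5, 5.65, 13.8, 6.65 and 10.8 CPM in the others (log2 difference -2.29 ± 0.46). For Trpc6 the line 1 WT range, 1.56 to 10.3 CPM, held all 3 X424 mice, and X424.C4 was below the other line 3 OE mice, at 1.04 CPM against 1.72 to 11.2 CPM.

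Rims2, a scaffold of the presynaptic active zone, was at 4.74, 9.99 and 6.59 CPM in X424 and at 15.6 to 31.5 CPM in the others (log2 difference -1.70 ± 0.34). Mmp16, a membrane-bound matrix metalloproteinase, had 13.8 to 17.6 CPM against 21.8 to 44.0 CPM. Olfm3, a secreted olfactomedin, had 10.2 to 25.4 CPM against 34.9 to 44.1 CPM. Cobl, an actin nucleator, had 15.9 to 30.3 CPM against 35.9 to 57.9 CPM. Fut9, a fucosyltransferase that makes the Lewis x epitope, had 39.9 to 52.9 CPM against 69.3 to 128 CPM. The 2 groups of WT mice did not overlap for any of these 5 genes. X424.C4 was below the other line 3 OE mice for Olfm3, Cobl and Fut9, at 8.17, 31.1 and 48.0 CPM, and within their range for Rims2 and Mmp16.

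Kcnh5, a voltage-gated potassium channel that met the filter only through the other 5 mice, was nearly absent from the X424 mice, at 0.197, 0 and 0.258 CPM, against 9.12, 2.03, 1.34, 2.3 and 0.742 CPM in the others. These are few reads, and 1 mouse, SMC12.C3, carried most of the signal. Lrrc3 had 3.0 to 6.97 CPM against 5.94 to 20.2 CPM and Zfp280d had 21.2 to 37.7 CPM against 35.4 to 68.4 CPM, and in both genes the groups overlapped. Samd5 had 1.48 to 1.81 CPM against 3.71 to 8.07 CPM. Among transcripts of other types, 2610011E03Rik had 2.45 to 3.59 CPM against 8.2 to 12.9 CPM, and Gm45191 had 1.4 to 2.76 CPM against 3.97 to 13.6 CPM. Gm37376, which lies within Malat1 on the opposite strand (chromosome 19, 5801941 to 5802393), was at 302, 291 and 341 CPM against 760, 688, 660, 353 and 774 CPM. Whether the counting used strand is not given in the sources used here, so its reads and those of Malat1 cannot be told apart.

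The 97 higher and 76 lower genes are described by annotated type, span and position, without a test. Of the higher genes 90 were protein-coding (92.8%), against 77.4% of all genes tested, and of the lower genes 54 were (71.1%). Genes of the GENCODE class TEC, which awaits experimental evidence, made up 14.5% of the lower genes and 7.33% of all tested. The median genomic span was 29.1 kb for the higher genes, 87.4 kb for the lower genes and 18.2 kb for all genes tested. The genes lay on 20 chromosomes, with at most 15 on 1 chromosome and at most 5 in any window of 5 Mb. The differences were not shared evenly among the X424 mice. The highest X424 mouse was X424.C2 for 69 of the 97 higher genes, and the lowest was X424.C3 for 74. Of the lower genes, 33 were lowest in X424.C1, 33 in X424.C2 and 10 in X424.C3. All 3 X424 mice were outside the range of all 5 others for 59 of the 97 and 58 of the 76. Over all tested genes, the 3 X424 mice were above all 5 others for 2.76% and below all 5 for 2.39%. These shares are a description, since the genes were chosen on the same mice. Of the 97 genes 11 (11.3%), and of the 76 genes 14 (18.4%), would not have met the filter on low counts from the mice of the lower group alone, against 15.6% of all genes tested.

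The promoters of the named coding genes are shown for the 2 genes of each direction with the smallest p and an entry in the table of RefSeq promoters used here (GRCm38.p6), as examples of genes that differed in the same direction. Of the 12 higher genes 9 matched an entry and of the 12 lower genes 8 did. Not matched in the table of promoters used here were Spink8, Calb2, Crym, Gnb4, Rims2, Mmp16 and Fut9. Each sequence is the 250 bases before the RefSeq start nearest to the GENCODE start, read 5′ to 3′ along the gene's strand. A window can therefore overlap the GENCODE span of its gene, and that of Thsd4 lies inside the span given above. Capitals mark a match to a motif. The motifs were chosen after the values were seen and were searched on both strands. They were the E-box CAGCTG, the TATA box TATAAA and a loose form of the MEF2 box. That form was CTA and TAG with any 4 bases between them, and MEF2 box below means this loose form.
Thsd4, chr9:60511036-60511285, - strand, higher: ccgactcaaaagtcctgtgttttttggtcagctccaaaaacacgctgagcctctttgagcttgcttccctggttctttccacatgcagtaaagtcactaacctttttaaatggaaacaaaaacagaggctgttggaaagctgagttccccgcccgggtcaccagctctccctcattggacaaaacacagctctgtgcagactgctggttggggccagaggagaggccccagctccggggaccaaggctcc
Golm1, chr13:59675785-59676034, - strand, higher: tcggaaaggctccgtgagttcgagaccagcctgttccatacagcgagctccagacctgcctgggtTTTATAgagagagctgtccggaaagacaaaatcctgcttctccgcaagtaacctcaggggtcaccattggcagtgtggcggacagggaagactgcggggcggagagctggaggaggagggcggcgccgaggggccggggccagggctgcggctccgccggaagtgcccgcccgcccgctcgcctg
Trpc6, chr9:8543892-8544141, + strand, lower: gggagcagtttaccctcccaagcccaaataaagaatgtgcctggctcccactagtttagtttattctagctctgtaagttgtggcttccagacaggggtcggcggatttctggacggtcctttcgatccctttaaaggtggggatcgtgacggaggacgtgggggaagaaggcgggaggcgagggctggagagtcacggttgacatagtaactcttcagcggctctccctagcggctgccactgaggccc
Lrrc3, chr10:77902537-77902786, - strand, lower: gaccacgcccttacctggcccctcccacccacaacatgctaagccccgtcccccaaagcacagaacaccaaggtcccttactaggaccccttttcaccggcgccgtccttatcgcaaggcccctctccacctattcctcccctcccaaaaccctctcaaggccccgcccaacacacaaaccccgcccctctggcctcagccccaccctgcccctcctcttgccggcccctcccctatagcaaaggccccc
Golm1 alone of the 4 holds a match, to the TATA box on the opposite strand. A MEF2 box was in 0 of the 9 higher and 0 of the 8 lower promoters, against 3.2% of all 32851 promoters. An E-box was in 0 of 9 and 2 of 8 (Olfm3 and Samd5), against 13.0% of all, and a TATA box in 1 of 9 (Golm1) and 1 of 8 (Mef2c), against 12.4%. A match is a description of the letters in this window.

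Hippocampal marker genes were higher in 2 of the 3 X424 mice. Of 7 listed genes 6 were tested, with a positive log2 fold change in each. Of these, C1ql2, Dsp and Tdo2 met the filter on low counts only through the X424 mice where they are high, so a count or median over the 6 (5 with p under 0.05, beside 3.87% of all genes tested on the higher side, and a median of 3.20) is no support for the list. The 3 genes that the other mice also carried past the filter were Spink8, Fibcd1 and Prox1, with log2 fold changes of 3.34, 1.68 and 1.43, and each had p under 0.05. The summed level of the list was 116, 280 and 38.3 CPM in X424.C1, X424.C2 and X424.C3, and 24.2 to 63.8 CPM in the other 5 mice. The first 2 mice were above the range of the others and X424.C3 was inside it. In bulk tissue, fewer cells of a type and less RNA per cell cannot be told apart.

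The dentate granule cell genes Prox1 (a transcription factor), C1ql2 (a secreted synaptic protein) and Dsp (the desmosome protein desmoplakin) were highest in X424.C2. Prox1 was at 98.1, 133 and 17.9 CPM in the X424 mice and at 26.8, 53.6, 41.5, 16.5 and 16.6 CPM in the others. C1ql2 was at 1.87, 14.6 and 0.775 CPM, against 0 to 1.02 CPM in the others. Dsp was at 3.06, 14.3 and 0 CPM, against 0, 0.339, 0, 2.81 and 0 CPM. For all 3 genes X424.C3 was within the others. Spink8 was the 1 list member for which X424.C3 was also above all 5. X424.C4 had a summed level of 227 CPM, against 27.2 to 73.4 CPM in the other line 3 OE mice, and C1ql2, Dsp and Prox1 at 16.3, 9.91 and 64.5 CPM were each above all 7. Line 1 WT mice had sums of 22.8 to 102 CPM, so that X424.C1 and X424.C2 were above that range too. Line 1 OE mice had sums of 26.6 to 69.8 CPM. The count of hippocampal genes with p under 0.05 was 1 without X424.C2, 2 without X424.C1 (5 genes tested in each case) and 3 without X605A.A4.

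Striatal projection neuron genes were lower in the same 2 mice. Of 15 listed genes 14 were tested, all with a negative log2 fold change and a median of -1.50. Of these 7 had p under 0.05, beside 4.03% of all genes on the lower side, and none had p under 0.005. The summed level was 1216, 435.8 and 3904 CPM in X424.C1, X424.C2 and X424.C3 and 2508 to 6877 CPM in the others, so that X424.C3 was again inside the range. Line 1 WT mice had 3796 to 5607 CPM. Line 1 OE mice had 978.2 to 6272 CPM, a range that held X424.C1 and X424.C3. X424.C4 had 429.2 CPM, against 3233 to 7696 CPM in the other line 3 OE mice, and was below their median for all 14 genes.

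Drd1, the D1 dopamine receptor, was at 38.2, 9.59 and 127 CPM in the X424 mice and at 172, 103, 301, 95.7 and 159 CPM in the others. Pde10a, a striatal phosphodiesterase, was at 31.8, 14.9 and 161 CPM against 210, 131, 317, 109 and 215 CPM. Tac1, the substance P precursor, was at 59.8, 19.3 and 154 CPM against 155, 148, 324, 124 and 151 CPM. Rgs9, a regulator of G protein signalling, was at 17.5, 6.49 and 107 CPM against 58.2 to 181 CPM. The order X424.C2, X424.C1, X424.C3 held for all 4 genes. Foxp2, a transcription factor of the intercalated cells and the striatum, was at 40.4, 10.5 and 63.9 CPM against 56.3 to 106 CPM. It was the 1 of 8 central amygdala and intercalated genes with p under 0.05, beside 4.03% of all genes on the lower side. The count of striatal genes with p under 0.05 was 0 of 14 without X424.C1, 0 without X424.C2, 3 without SMC12.C3, 3 without X605A.A4, 12 without SMC12.C4 and 13 without X424.C3. The list median was -1.36 without X424.C1, -0.45 without X424.C2, -2.43 without X424.C3 and -0.44 in males.

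Choroid plexus genes were the widest in range. All 10 had a positive log2 fold change with a median of 1.91, and 2 had p under 0.05, beside 3.87% of all genes: Clic6, a chloride channel protein, and Slc4a5, a sodium bicarbonate transporter. The summed level was 6187, 8444 and 35.1 CPM in X424.C1, X424.C2 and X424.C3, and 22 to 4233 CPM in the others. X424.C3 was thus near the lowest mouse of the comparison, and X424.C1 and X424.C2 were above the highest of the others. Clic6 was at 80.4, 81.8 and 12.9 CPM against 8.73, 17.6, 14.0, 42.7 and 0.89 CPM. Slc4a5 was at 13.9, 17.0 and 0.775 CPM against 1.82, 3.28, 1.63, 6.78 and 1.63 CPM. In the OE mice X424.C4 had a sum of 4691 CPM, against 42.6 to 1607 CPM in the others. Without any 1 of X424.C1, X424.C2 and SMC12.C3 no choroid plexus gene had p under 0.05, and without X424.C3 or X605B.A7 9 and 7 of 10 had. The list median was 0.88 without X424.C1 and 2.67 without X605B.A7.

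The ependymal list, the ciliated lining of the ventricle, gave sums of 75.1, 71.2 and 18.1 CPM against 13.4 to 55.4 CPM. Of its 6 genes 1, Rarres2, had p under 0.05, beside 3.87% of all genes. The mural and meningeal sum was 154, 237 and 67.0 CPM against 49.9 to 112 CPM, and of 12 tested genes 2 had p under 0.05, beside 3.87% of all genes. Dcn, a matrix proteoglycan, was at 9.28, 54.1 and 5.16 CPM against 3.56 to 10.6 CPM, and Igf2, a growth factor made by meninges and choroid plexus, was at 80.8, 99.7 and 10.1 CPM against 6.24 to 49.5 CPM. X424.C3 was within the others in both, and X424.C1 was within them for Dcn. The part of these ventricular and meningeal markers in the other differences was not tested.

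**Figure D3:**
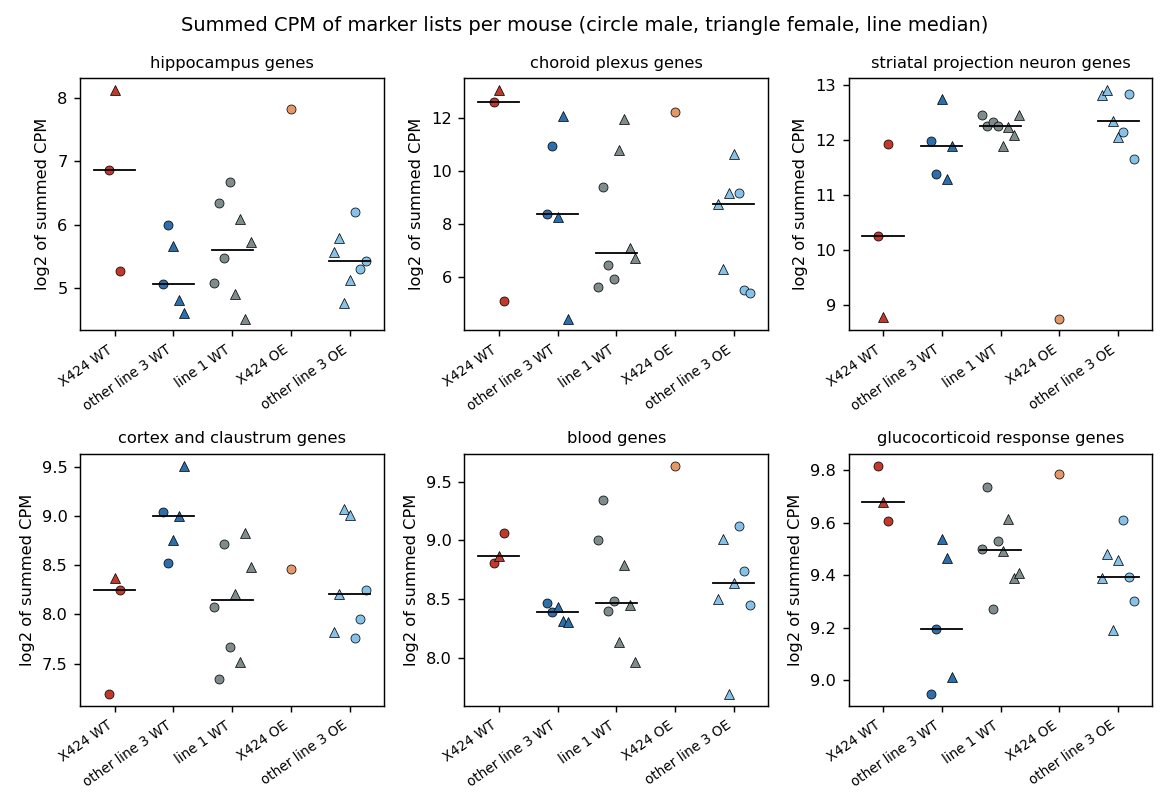
Log2 of the summed CPM of 6 marker lists in each mouse, by group; circles are males, triangles females and lines group medians. X424.C1 and X424.C2 are apart from the other line 3 WT mice for hippocampus, choroid plexus and striatal genes, X424.C3 is not, and all 3 are apart for cortex and claustrum, blood and glucocorticoid response genes.

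Cortex and claustrum genes were lower in all 3 X424 mice. Of 11 listed genes 10 were tested, 9 had a negative log2 fold change and 6 had p under 0.05, beside 4.03% of all genes on the lower side, and the median was -0.55. In all 16 line 3 mice the count was 2. Gnb4 and Nr4a2 were among those with p under 0.005. The summed level was 146, 331 and 304 CPM in X424.C1, X424.C2 and X424.C3 and 369 to 730 CPM in the other 5, with no overlap. Line 1 WT mice spanned 162 to 456 CPM and the other line 3 OE mice 217 to 540 CPM. Both ranges reached across the gap between the WT groups of line 3. X424.C4 had 354 CPM, within the range of its group.

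Nr4a2, an orphan nuclear receptor of the claustrum, was at 14.1, 83.0 and 45.6 CPM against 180, 87.2, 101, 123 and 272 CPM. Tbr1, a transcription factor of glutamatergic neurons, was at 8.39, 37.6 and 43.5 CPM against 91.0, 66.0, 48.3, 94.2 and 146 CPM. For both genes and Gnb4 each X424 mouse was below each of the other 5, and X424.C1 was lowest for Nr4a2 and Tbr1. Over all genes tested, 2.39% had all 3 X424 mice below all 5 others. Fezf2, a marker of deep-layer cortical neurons, had a log2 fold change of 0.63 (adjusted p = 0.821), the 1 member above 0.

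Genes listed for BLA principal neurons did not share one direction. Whether their RNA came from the BLA or from a neighbouring region was not tested. Of 8 genes 3 had p under 0.05, all higher, beside 3.87% of all genes, and the median was 0.22. Neurod6, a neuronal basic helix-loop-helix factor, was at 80.4, 126 and 35.4 CPM against 39.5, 38.1, 18.6, 44.6 and 55.2 CPM. Neurod2, of the same family, was at 46.7, 116 and 40.8 CPM against 19.6 to 61.3 CPM. Etv1, an ETS transcription factor, was at 53.1, 88.3 and 73.5 CPM against 31.3 to 61.7 CPM. X424.C2 was above the others in all 3 genes and X424.C1 and X424.C3 each overlapped with them in 2 of the 3. The summed level of 1703, 3378 and 2995 CPM lay across the 1860 to 3752 CPM of the others, with X424.C1 just below it. X424.C4 had 6822 CPM, against 2309 to 3904 CPM in the other line 3 OE mice.

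Blood and stress-linked genes separated the groups by small amounts. At p under 0.05 were 4 of 5 genes tested, beside 3.87% of all genes, and in all 16 WT mice 2 were. The 4 globin genes Hba-a1, Hba-a2, Hbb-bs and Hbb-bt, which encode the chains of haemoglobin, were each above all 5 others in all 3 X424 mice. Over all genes tested, 2.76% had all 3 X424 mice above all 5 others. Hbb-bs was at 167, 169 and 193 CPM against 126, 119, 130, 121 and 94.1 CPM (log2 difference 0.56 ± 0.16, adjusted p = 0.528). Hbb-bt, Hba-a2 and Hba-a1 differed by 0.71 ± 0.22, 0.48 ± 0.15 and 0.43 ± 0.15 on the log2 scale. The paralogs of each pair are near-identical, so how reads were split between them is uncertain. The fifth gene tested, the haem synthesis enzyme Alas2, had a log2 fold change of -0.10 (adjusted p = 0.984). The list sum of 448, 468 and 533 CPM was above the 316 to 354 CPM of the others, but within the line 1 WT range of 250 to 651 CPM. Without X424.C2, 2 of the 5 genes had p under 0.05.

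Of 12 glucocorticoid response genes, 5 had p under 0.05, all higher, beside 3.87% of all genes, with a list median of 0.40. Mt2, a metallothionein, was at 282, 299 and 263 CPM against 144, 193, 256, 217 and 147 CPM, with no overlap. Sgk1, a serum- and glucocorticoid-induced kinase, was at 127, 46.3 and 42.1 CPM against 27.1, 46.5, 42.2, 38.4 and 28.8 CPM, where X424.C1 alone was high. Ddit4, an inhibitor of mTOR signalling, was at 49.3, 56.9 and 46.6 CPM against 31.7 to 44.0 CPM, and Tsc22d3, the glucocorticoid-induced leucine zipper, at 70.0, 47.2 and 50.5 CPM against 27.0 to 47.4 CPM. Mt1 was the fifth, with a log2 fold change of 0.39. Fkbp5, a classical target of the receptor, had a log2 fold change of 0.25 (adjusted p = 0.845). The list sum was 902, 821 and 779 CPM, above the 494 to 744 CPM of the others. The line 1 WT range of 618 to 852 CPM held X424.C2 and X424.C3. The count at p under 0.05 was 2 without X424.C1, 2 without SMC12.C3, 1 without SMC12.C4 and 2 without X605A.A4.

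Among other lists the counts were low. Of 9 interferon response genes 2 had p under 0.05, both higher, beside 3.87% of all genes. Ifi27 was at 72.0, 95.9 and 19.2 CPM against 21.1, 21.8, 19.0, 36.1 and 16.8 CPM, and Rsad2, an antiviral enzyme, at 1.68, 3.3 and 4.52 CPM against 0.521 to 1.81 CPM. Of 79 nuclear genes of oxidative phosphorylation, 72 had a positive log2 fold change, and 4 had p under 0.05, beside 3.87% of all genes. Their median was 0.19, against -0.001 over all genes tested. The 13 mitochondrially encoded genes had a median of -0.12 and none with p under 0.05. The 76 ribosomal protein genes had a median of 0.08 and none.

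Glial and vascular lists held few genes with p under 0.05, beside 3.87% of all genes on the higher side and 4.03% on the lower side. None of 14 myelin genes, 12 microglial genes or 10 endothelial genes had p under 0.05. The myelin sum was 9631, 1814 and 2537 CPM in the X424 mice against 1677 to 5844 CPM, so that X424.C1 was high and the other 2 were not. The oligodendrocyte precursor sum was likewise high in X424.C1, at 393, 182 and 152 CPM against 151 to 261 CPM. The endothelial sum was 180, 160 and 183 CPM against 145 to 177 CPM, with X424.C1 and X424.C3 just above the others, and the microglial sum was 246, 205 and 273 CPM against 226 to 326 CPM. Of 12 astrocyte genes Gfap, the filament protein of reactive astrocytes, had p under 0.05, at 54.7, 28.3 and 7.23 CPM against 3.56 to 18.1 CPM. Of 8 oligodendrocyte precursor genes Tnr, a perineuronal matrix protein, was the 1 with p under 0.05, at 25.6, 32.9 and 31.2 CPM against 31.6 to 51.9 CPM. The 6 thalamic genes had none, although their sum in X424.C1 was 226 CPM and 46.2 and 49.3 CPM in the other 2, against 35.8 to 73.4 CPM. Only 2 of the 9 hypothalamic genes passed the filter on low counts, and neither had p under 0.05.

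In lists linked to time of day or handling, single members had p under 0.05, beside 3.87% of all genes higher and 4.03% lower. Of 14 immediate early genes Fosl2 was higher, at 30.9, 64.7 and 48.7 CPM against 25.1 to 37.8 CPM, and the list median was -0.17, with 11 of 14 members negative. The sum of the immediate early genes was 303, 404 and 595 CPM against 448 to 619 CPM, so that X424.C1 and X424.C2 were below the others. Of 15 clock genes Dbp, an output gene of the circadian clock, was lower, at 33.0, 21.4 and 53.8 CPM against 43.3 to 85.1 CPM, and the list median was -0.16, with 13 of 15 members negative. The clock sum was 556, 561 and 772 CPM against 663 to 886 CPM, again with X424.C1 and X424.C2 below the others. Of 15 heat shock and chaperone genes Hspa1a, the inducible Hsp70, was higher, at 7.1, 15.1 and 4.0 CPM against 0.452 to 10.4 CPM. The 2 cold-inducible genes had no p under 0.05. Of 10 antigen presentation genes H2-Q4 was lower, at 1.97, 3.0 and 6.2 CPM against 2.69 to 13.2 CPM. The 5 genes known to differ between C57BL/6 substrains had no p under 0.05, with a median of 0.08.

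**Figure D4:**
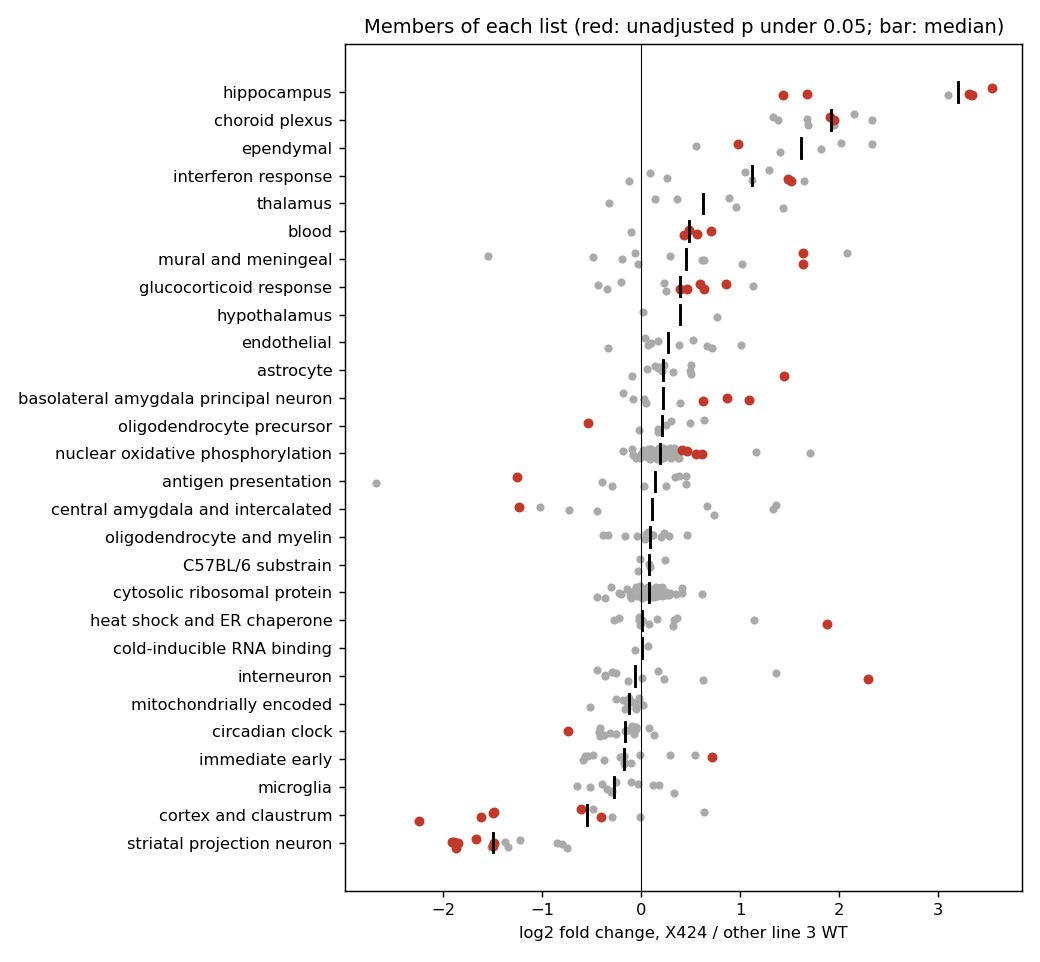
Log2 fold change between X424 and the other line 3 WT mice (horizontal axis) for each tested member of 28 lists, ordered by their medians (black bars). Members at an unadjusted p under 0.05 are red, and the hippocampal median of 3.20, which includes 3 genes that met the filter only through X424 mice, and the striatal median of -1.50 are at the 2 ends.

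Whole profiles were compared over log2 CPM. The median correlation between pairs was 0.9065 within X424 (3 pairs), 0.9114 within the others (10 pairs) and 0.9038 between the groups (15 pairs), a description over genes of the same libraries. On the first principal component of the 8 mice, which held 24.3% of the variance, X424.C1 and X424.C2 scored 83.17 and 54.6, and X424.C3 scored -20.96, within the -48.3 to 14.83 of the others.

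The X424 OE mouse was compared with the 7 other line 3 OE mice for the same genes. For the 97 higher genes it was above the median of the 7 other line 3 OE mice for 81 (83.5%), against 49.0% of all genes tested. It was above all 7 for 61 (62.9%) and below all 7 for 9, where 25.1% of all genes were above all 7 in this outlying library. The median log2 difference was 1.05. For the 76 lower genes it was below the median for 42 (55.3%), against 50.2% of all genes. It was below all 7 for 27 (35.5%), against 25.5% of all genes, and above all 7 for 9, with a median log2 difference of -0.19. The difference between the 2 shares was not tested. This mouse shares no animal with the WT comparison, but its library stood apart in connectivity (-4.57), and the part of that in these shares was not tested.

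**Figure D5:**
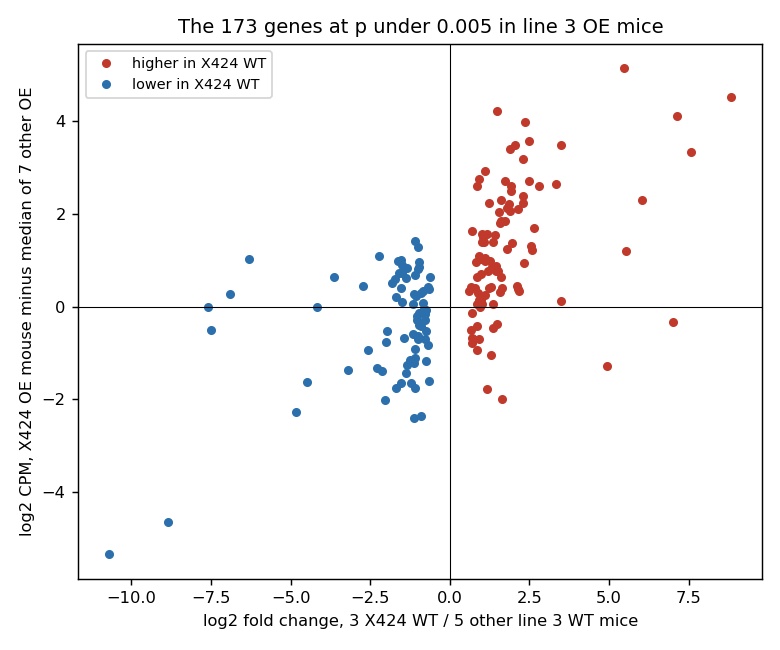
Log2 CPM of the X424 OE mouse minus the median of the 7 other line 3 OE mice (vertical axis) against the log2 fold change between X424 and the other line 3 WT mice (horizontal axis), for the 173 genes at p under 0.005. Of the 97 genes higher in X424 WT mice (red) 81 are above 0, and of the 76 lower genes (blue) 42 are below 0.

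The WT mice of line 1 give a further reference for both groups. The X424 mean was above the whole line 1 WT range for 81 of the 97 higher genes, against 9.79% of all genes tested, and the mean of the other 5 was below that range for 6, against 2.43%. The line 1 WT median was nearer to the other 5 than to the X424 mice for 91, against 60.6% of all genes. For the 76 lower genes the X424 mean was below the line 1 range for 38, against 7.54% of all genes, the mean of the others was above it for 19, against 5.03%, and the line 1 median was nearer to the others for 52. The genes were chosen for the distance of X424 from the others, so these counts are a description. Line 1 and line 3 differ in founder, so these are levels without a test.

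The direction of the 173 genes held within each sex. In males, 2 X424 against 2 SMC12 mice, all 97 higher and all 76 lower genes kept their sign. In females, 1 X424 against 3 X605 mice, 95 higher and 75 lower genes could be fitted and all kept it. The same mice chose the genes, so the signs are a description. The fold changes of the striatal genes were larger in females, as for Drd1 with a log2 difference of -4.25 in females and -0.74 in males. That female, X424.C2, had the lowest striatal sum of the 8, and a difference between sexes was not tested.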

How the data were processed

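BLA punches of both hemispheres were pooled for each mouse and sequenced by QuantSeq. The deposited values are expected counts, estimated by the authors with Salmon after STAR mapping (GRCm38) and neither normalized nor filtered, for 48709 genes in each of 31 mice. GENCODE M21, on the same build, named 48349 of them by identifier.

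Counts were rounded, and a gene was tested if 20% of the 8 mice (2 mice) had 10 reads or more. X424 and other WT mice of line 3 were compared by edgeR's quasi-likelihood F test (version 4.0.16, R 4.3.3) on TMM-scaled counts, with sex as a covariate and Benjamini-Hochberg adjustment. Thresholds were an adjusted p of 0.05 and unadjusted p of 0.005 and 0.05. Log2 CPM used a prior count of 2. DESeq2 1.42.0, other normalization, filters, covariates and subsets of mice were alternatives. Each mouse was 1 replicate, and the labels do not say whether mice share a litter. Low read numbers limit low-level genes, and the floor of 3 reads covers counting error only. The steps were tested on simulated data. No 2 mice had identical counts.

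Named genes were the 12 coding genes with the smallest p and up to 3 genes of other types in each direction, up to 4 genes per list, and Cyfip1, Xist and Ddx3y. Members and lists were chosen with earlier results of these data known. Mt1, Alas2, Fezf2 and Fkbp5 were named after their values were seen. An item that the rule names is not reported here.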

Additional observations from a re-analysis of the deposited data

Results flagged for a closer look

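Among the 5 other line 3 WT mice, 69 genes were checked for a single mouse far from the rest, and 11 had one, where about 1 in 20 such groups (3.45) is flagged by chance. The highest mouse was far above the other 4 for Tanc1 (X605A.A4, 18.5 CPM), Kcnh5 (SMC12.C3, 9.12 CPM), Tac1 (X605B.A3, 324 CPM), Dsp (X605B.A7, 2.81 CPM), Fosl2 (SMC12.C4, 37.8 CPM), Hspa1a (X605B.A7, 10.4 CPM) and Ifi27 (X605B.A7, 36.1 CPM). The lowest mouse was far below the other 4 for Gm10499 (SMC12.C3, 8.2 CPM), Gm37376 (X605B.A7, 353 CPM), Hbb-bt (X605B.A7, 20.6 CPM) and Hba-a1 (X605B.A3, 69.8 CPM). X605B.A7 was the mouse in 5 of the 11 genes, and it also had the highest choroid plexus sum of the 5 mice, 4233 CPM. The X424 group, with 3 mice, was too small for this check.

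Cyfip1 had opposite directions in the sexes, with a log2 fold change of -0.05 in males and 0.10 in females. The difference was not tested.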

How the results depend on the processing

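The count of genes at an adjusted p under 0.05 was 0 with TMM or DESeq2 size factors and without the sex term. It was 430 with no filter on low counts (28760 genes), 49 with DESeq2, 90 in all 16 line 3 mice, 6 in all 16 WT mice, 2 in males and 38 in females, and 0 to 65 when 1 mouse was left out, 65 without X424.C3 and 2 without SMC12.C4. The count at p under 0.005 was 766 with no filter, 348 with DESeq2, 593 in all 16 line 3 mice, 299 in all 16 WT mice, 72 in males, 315 in females, and 63 to 552 when 1 mouse was left out (63 without X424.C2, 83 without X424.C1, 99 without SMC12.C3 or X605A.A4, 552 without X424.C3). In line 3 mice without the X424 OE mouse, added after seeing the data, the count at p under 0.005 was 284. The count at an adjusted p under 0.05 was then 0, against 90 with that mouse included. Of the 173 genes, 163 remained with no filter, 165 with DESeq2 and 28 in males. With 1 mouse left out, 29 remained without X424.C2, 62 without X424.C1 and 130 without X424.C3. Without 1 of the other 5 mice, 74 to 131 remained. Cyfip1, at 0.00, had a log2 fold change of -0.05 in males and of -0.06 to -0.01 without X424.C2, SMC12.C3 or X605A.A4. No paired analysis was possible because the labels do not link mice of 1 group to mice of the other. Where 1 X424 female was left, it was assumed to vary like the other mice. The cause of these shifts was not tested.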
